A study of Homo sapiens with 9 samples.

Results

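The 58 genes described here encode ribosome biogenesis and nucleolar factors, proteins that build the small (40S) and large (60S) ribosomal subunits or that make up the nucleolus. They were taken as the rows of the deposited gene table whose Ensembl identifier, with its version removed, maps to 1 of 58 listed symbols. Each symbol matched 1 row, so 58 of the 61853 genes in the table are members, and all 58 passed the filter on low counts. RNA was sequenced from 293T cells, an established line derived from human embryonic kidney. Of the 3 shRNA groups the labels name, 2 are analysed here, with 3 libraries each, which the series calls biological replicates. Scramble cells (genotype labelled WT) received a control short hairpin RNA of scrambled sequence, and DIS3-sh1 cells (genotype labelled as a DIS3 knockdown) received a hairpin against DIS3, the catalytic ribonuclease of the nuclear RNA exosome. The labels give neither a time after delivery of the hairpin nor whether clones were picked. With a single hairpin analysed, an effect of the loss of DIS3 and an effect of this hairpin on other targets cannot be told apart. In bulk samples, fewer cells of a type and less RNA per cell cannot be told apart, and values scaled to the library cannot show a change shared by all genes.

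Ribosomes are assembled mainly in the nucleolus, where RNA polymerase I makes a long precursor of the 18S, 5.8S and 28S ribosomal RNAs. A particle called the small subunit processome forms on the first part of this precursor, and a separate chain of factors shapes the 60S subunit. The exosome trims the precursor, in particular the 3' end of 5.8S rRNA, and degrades its spacer fragments. Many genes of the pathway have an E-box (CACGTG), the site bound by MYC and related factors, at their promoters, and proliferating cells express them strongly.

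Library totals ranged from 19800892 to 23532148 counts, and levels are given as TMM-scaled CPM, the count relative to an effective library size, where 1 CPM is 20.1 to 23.2 counts. The targeted gene, DIS3, was at 15.3% of its Scramble level in DIS3-sh1 (log2 fold change -2.71 ± 0.04, SE). In DIS3-sh1, small structural RNAs took 8.43% to 9.60% of counts, against 5.07% to 5.28% in Scramble. DIS3-sh1 replicate 1 differed most within its group: the chi-square statistic per degree of freedom over genes was 5.75 and 5.83 against replicates 2 and 3, and 1.62 between those (1.89 to 1.97 among Scramble libraries). Of 5 genes known from 293T cells, LIN28B, NEFM, NEFL and INA measured 21.2 to 175 CPM in every library. PAX2 measured 1.1 to 2.28 CPM in Scramble and 4.05 to 4.75 CPM in DIS3-sh1. The summed level of the 5 was 384 to 388 CPM in Scramble and 264 to 274 CPM in DIS3-sh1, a fall that PAX2 did not share. Markers of blood cells (PTPRC and CD3E, 0 or at most 0.0431 CPM summed) and of hepatocytes (ALB and APOA1, at most 0.381 CPM summed) were at or near 0. The fibroblast collagens COL1A1 and COL3A1 summed to 14.5 to 15.6 CPM in control libraries and 24 to 28.2 CPM after the knockdown, nearly all of it COL1A1, and their part in the results was not tested.

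Ribosome biogenesis factors were lower in DIS3-sh1 almost throughout. Of 58 members, 55 fell, 1 rose (NOB1, the endonuclease that makes the 3' end of 18S rRNA) and 2 did not pass the test (TBL3 and BOP1). Here and below, fell and rose mean an adjusted p under 0.05 in edgeR's quasi-likelihood test, adjusted over all 19591 genes tested. Of all genes tested, 32.6% were called lower and 34.5% higher. Among the 10878 genes at a mean of 10 CPM or more, the range that holds every member except WDR46, 46.1% were called lower. The members' share was 94.8%. Their median log2 fold change was -0.65, against 0.02 over all genes tested and -0.08 over the genes at 10 CPM or more, and the extremes were -1.61 (NOP16) and 0.37 (NOB1). The list was chosen with earlier results of these data known, and a fall of this pathway had been seen with a shorter list that shares members with it.

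Added up, the 58 members came to 10483, 10516 and 10464 CPM with the scrambled hairpin. The sums were 6618, 6778 and 6783 CPM after the knockdown, and their mean was 64.1% of that in Scramble. The sum did not rest on the highest members: without NCL and NPM1 it was 7410 ± 12.9 CPM with the scrambled hairpin and 4761 ± 27.1 CPM after the knockdown (SD, n = 3 each), or 64.2%. Every DIS3-sh1 library lay below every Scramble library for 55 members, a pattern that 34.2% of all genes tested showed, and above for NOB1 (35.6% of all genes). Most falls were moderate, with 33 members between -0.5 and -1 on the log2 scale and 10 members at -1 or below. Over all 19591 genes tested, 2705 lay between -0.5 and -1, called or not, and 772 (3.94%) were called lower at -1 or less. Among the 10878 genes at a mean of 10 CPM or more, these counts were 1669 and 260.

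**Figure D1:**
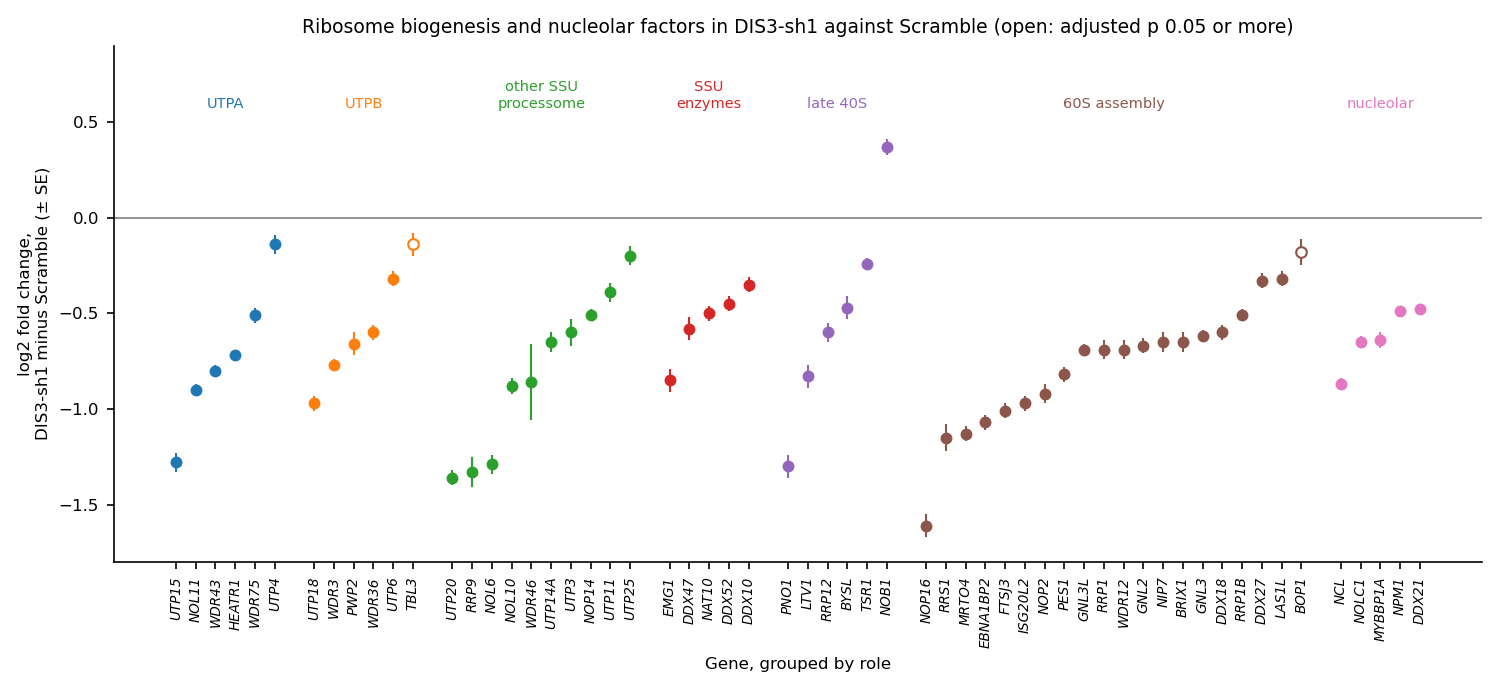
Log2 fold change (DIS3-sh1 minus Scramble, y axis) of each of the 58 members (x axis), grouped by role and sorted within a group, with bars for the SE of the edgeR fit. All members lie below 0 except NOB1 at 0.37, and the open circles, TBL3 and BOP1, did not pass the test.

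**Figure D2:**
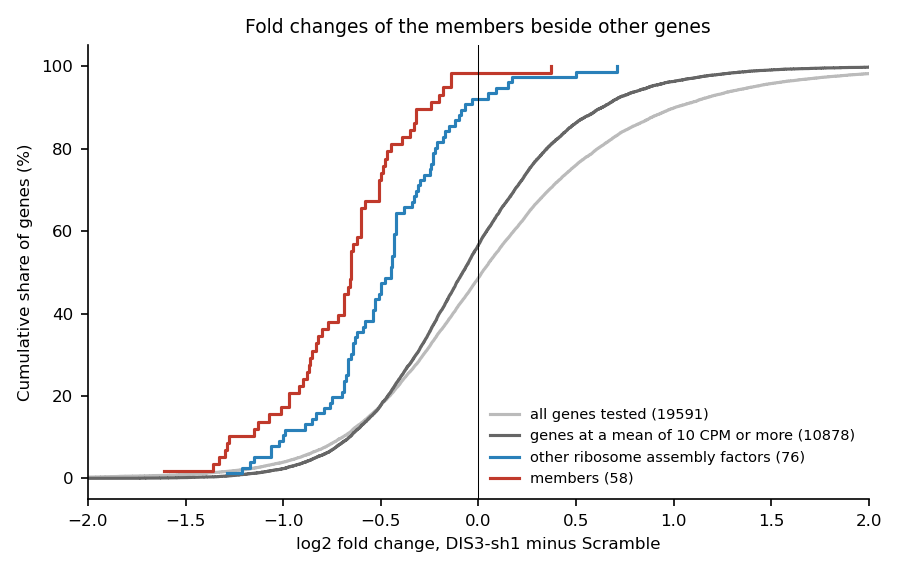
Cumulative share of genes (y axis, %) by log2 fold change (x axis, shown from -2 to 2) for the 58 members, 76 other ribosome assembly factors, genes at a mean of 10 CPM or more and all genes tested. The medians are -0.65 for members, -0.45 for the other factors, -0.08 for genes at 10 CPM or more and 0.02 for all genes tested.

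A sequence feature shared by many members was an E-box close to the transcription start. Promoters were taken from RefSeq on GRCh38.p14, from 250 bases before to 50 bases after the annotated start, with the first promoter listed used where a gene has several. Of the 58 members, 50 had an entry. The E-box CACGTG, which reads the same on both strands, occurred in 21 of 50 member promoters (42.0%), against 10% of 11993 promoters of genes tested and 7.43% of all 27305 promoters. Within 50 bases of the start on either side it occurred in 19 of 50 members (38.0%), against 3.99% of promoters of genes tested and 4.50% of those at 10 CPM or more. Among promoters of other ribosome assembly factors, 13 of 66 had one there (19.7%). Of the 22 E-boxes, 7 began upstream of the start and 15 after it.

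The E-boxes and their flanks are shown for the 7 E-box members with the largest falls and for UTP4, the E-box member with the smallest. For UTP18, which has 2 E-boxes, the one nearer the start is shown. Capitals mark the E-box, and the gene's strand is read 5′ to 3′.
UTP20: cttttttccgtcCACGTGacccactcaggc
RRP9: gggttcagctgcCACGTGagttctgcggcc
PNO1: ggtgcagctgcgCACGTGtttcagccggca
NOL6: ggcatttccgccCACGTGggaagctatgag
MRTO4: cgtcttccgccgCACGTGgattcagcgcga
EBNA1BP2: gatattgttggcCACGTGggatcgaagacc
UTP18: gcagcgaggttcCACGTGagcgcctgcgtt
UTP4: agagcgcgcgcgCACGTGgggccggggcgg
The windows lie at chr12:101280083-101280112 on the plus strand for UTP20, chr3:51941892-51941921 on the minus strand for RRP9, chr2:68157885-68157914 (plus) for PNO1 and chr9:33473894-33473923 (minus) for NOL6. The window of EBNA1BP2 lies at chr1:43172790-43172819 (minus). Those of MRTO4, UTP18 and UTP4 lie on plus strands at chr1:19251807-19251836, chr17:51260538-51260567 and chr16:69132621-69132650. Counted from the start, whose first transcribed base is 1, the E-box began at -10 in UTP20, -5 in RRP9, 10 in PNO1, 14 in NOL6, 15 in MRTO4, -237 in EBNA1BP2, 5 in UTP18 and -16 in UTP4. The E-box of EBNA1BP2 was thus far upstream of the start, unlike the others shown, and the further E-box of UTP18 was at -89. The log2 fold changes of these genes ran from -1.36 (UTP20) to -0.14 (UTP4), which are the largest and the smallest falls among the 21 members with an E-box, and the E-boxes of both lay shortly upstream of the start.

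**Figure D3:**
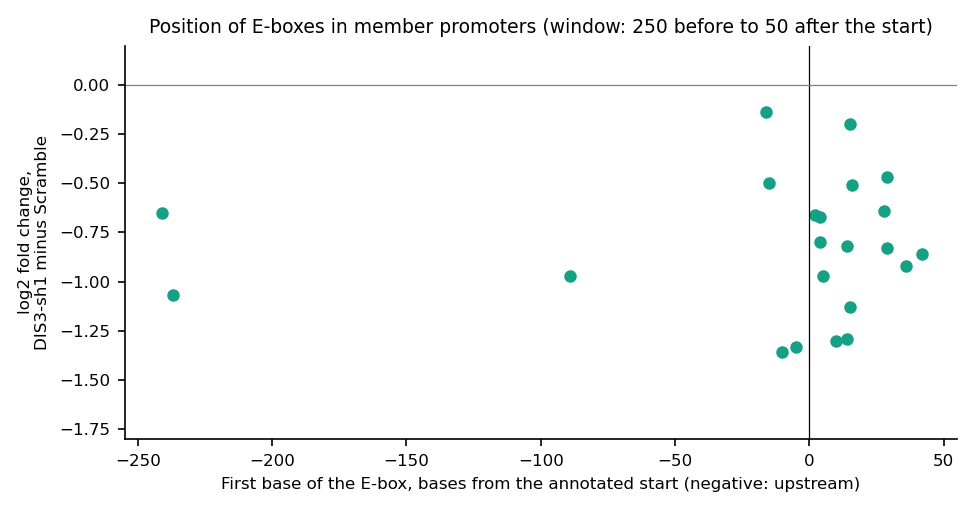
Position of the first base of each of 22 E-boxes in member promoters (x axis, bases from the annotated start, negative upstream) and the log2 fold change of the gene (y axis). Of the 22, 19 lie within 50 bases of the start, and their genes range from -1.36 to -0.14.

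Members with and without an E-box both fell. All 21 members with one were called lower, with a median log2 fold change of -0.82, and of 29 without one 27 were called lower, with a median of -0.62. Of the 8 members with no promoter entry, 7 were called lower, with a median of -0.6. The difference between these medians was not tested. NOP16, the member with the largest fall, had no CACGTG in its window, nor did NOB1, the member that rose. Other short motifs were searched on both strands. The ETS core CCGGAAG was in 38.0% of member promoters and 18.4% of those of genes tested, and CCAAT was in 30.0% and 36.8%. For other ribosome assembly factors the shares were 51.5% (ETS) and 33.3% (CCAAT), and for genes at 10 CPM or more 21.6% and 38.0%. None of the 3 letter strings contains another. A match describes these letters only.

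The UTPA complex (t-UTPs), which is the first to bind the rRNA precursor and is linked to its transcription, fell in all 6 members (median log2 fold change -0.76). HEATR1, its largest scaffold protein (chromosome 1, 236549005 to 236604504), measured 467, 474 and 460 CPM in Scramble and 283, 285 and 285 CPM in DIS3-sh1. The groups were far apart, with a log2 fold change of -0.72 ± 0.03 (SE, edgeR, adjusted p = 3.21e-21). UTP15 fell most within the complex, from 63.3, 66.0 and 67.9 CPM to 27.0, 26.6 and 27.3 CPM, a log2 fold change of -1.28 ± 0.05. NOL11 went from 198, 206 and 200 CPM to 109, 106 and 109 CPM (-0.90 ± 0.03). For these 3 mRNAs every DIS3-sh1 library lay below every Scramble library. WDR43 measured 230, 239 and 231 CPM in Scramble and 129, 135 and 138 CPM in DIS3-sh1 (-0.80 ± 0.03). WDR75 fell by 0.51 on the log2 scale, and UTP4 (cirhin) stood at the other end of the complex at -0.14 ± 0.05 (edgeR, adjusted p = 0.00772). UTP4 measured 71.3, 69.8 and 71.7 CPM in Scramble and 60.2, 65.2 and 67.3 CPM in DIS3-sh1. Its call was lost without DIS3-sh1 replicate 1, the library with the lowest value (edgeR, adjusted p = 0.0635), and with upper-quartile scaling (adjusted p = 0.234).

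UTPB, the next complex to join the processome, is a set of WD40-repeat proteins, with UTP6, that bridges UTPA and the U3 snoRNP. Of its 6 members, 5 fell and TBL3 did not pass (median -0.63). WDR3 measured 209, 207 and 200 CPM in Scramble and 119, 121 and 121 CPM in DIS3-sh1, a log2 fold change of -0.77 ± 0.03. WDR36, a gene studied in glaucoma, went from 155, 163 and 160 CPM to 99.2, 109 and 109 CPM (-0.60 ± 0.04). UTP18 fell most, from 97.0, 101 and 98.2 CPM to 50.9, 50.1 and 49.9 CPM (-0.97 ± 0.04). For all 3 the groups did not overlap. PWP2 and UTP6 fell by 0.66 and 0.32 on the log2 scale. TBL3 measured 64.6, 65.8 and 65.3 CPM in Scramble and 67.9, 55 and 54.6 CPM in DIS3-sh1. Replicate 1 of DIS3-sh1 was above all Scramble libraries and the other replicates below them, and the log2 fold change of -0.14 ± 0.06 missed the threshold (edgeR, adjusted p = 0.0528). Without that replicate it was -0.25 (adjusted p = 1.23e-05).

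Other proteins of the small subunit processome fell in 10 of 10 cases (median -0.75). UTP20, a giant HEAT-repeat protein (chromosome 12, 101280109 to 101386616), measured 183, 185 and 181 CPM in Scramble and 70.0, 71.4 and 72.7 CPM in DIS3-sh1. Its log2 fold change of -1.36 ± 0.04 (edgeR, adjusted p = 1.40e-24) had the smallest adjusted p of all members. RRP9, the protein specific to the U3 snoRNP, which guides the first cleavages, fell from 29.5, 24.4 and 28.0 CPM to 10.9, 10.8 and 11.0 CPM (-1.33 ± 0.08). NOP14, a bridging protein of the particle, went from 184, 185 and 184 CPM to 131, 127 and 131 CPM (-0.51 ± 0.03). Log2 fold changes in the group ran from -1.36 to -0.20. NOL6 fell by 1.29 and NOL10 by 0.88 on the log2 scale. UTP14A, the activator of the helicase DHX37, and UTP3 fell by 0.65 and 0.60, UTP11 by 0.39 and UTP25 by 0.20. WDR46 fell by 0.86 ± 0.20. It was the lowest member, at 3.02, 3.53 and 2.74 CPM in Scramble and 1.41, 1.90 and 1.81 CPM in DIS3-sh1, with at least 30 counts in each library.

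**Figure D4:**
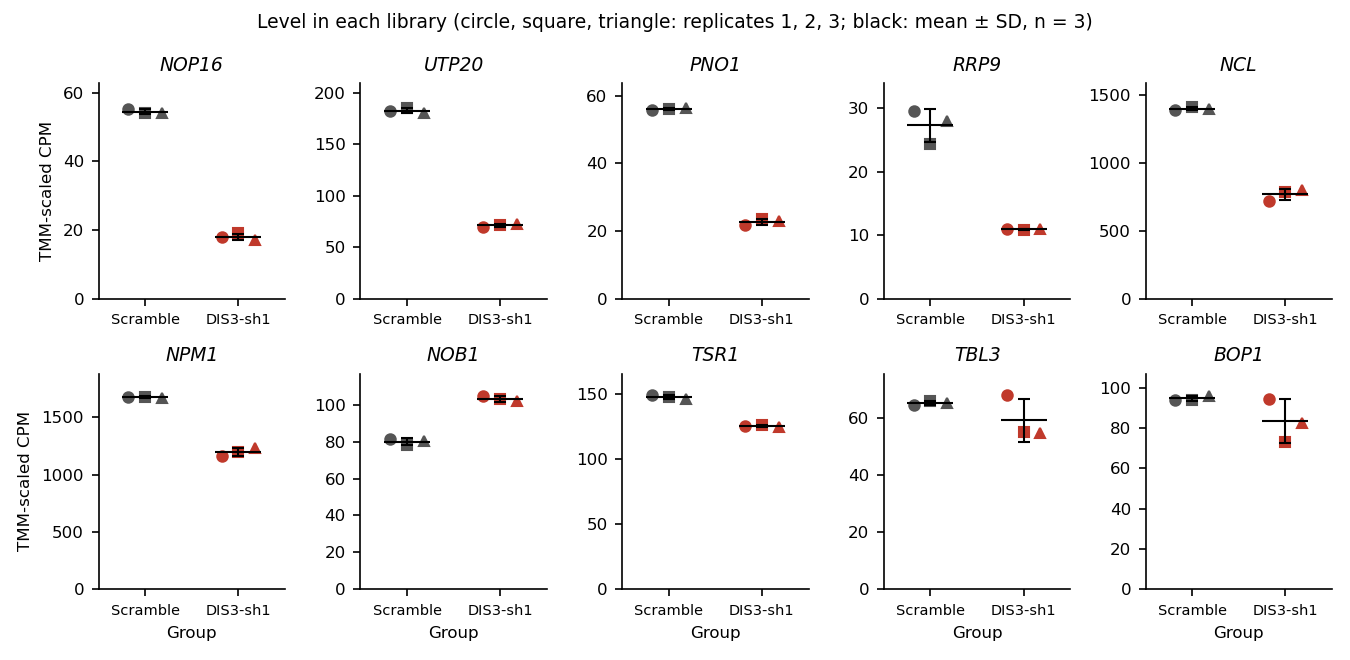
TMM-scaled CPM (y axis, from 0) in each library of Scramble (grey) and DIS3-sh1 (red) for 10 members, with the mean and SD in black (n = 3 per group). NOP16, UTP20, PNO1, RRP9, NCL, NPM1 and TSR1 are lower in all DIS3-sh1 libraries, NOB1 is higher in all, and for TBL3 and BOP1 replicate 1 of DIS3-sh1 (circle) lies within or above the Scramble range while the other replicates lie below it.

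Helicases and RNA-modifying enzymes of the small subunit fell in 5 of 5 cases, with a median of -0.50. NAT10, which acetylates cytidines in 18S rRNA, measured 153, 159 and 163 CPM in Scramble and 116, 112 and 108 CPM in DIS3-sh1 (log2 fold change -0.50 ± 0.04). EMG1, a methyltransferase of 18S rRNA, went from 43.7, 40.6 and 42.8 CPM to 24.9, 22.7 and 22.9 CPM (-0.85 ± 0.06). The groups did not overlap for either enzyme. The DEAD-box helicase gene DDX47 went from 40.4, 39.1 and 38.6 CPM to 26.4, 27.0 and 25.5 CPM (-0.58 ± 0.06). DDX52, of the same helicase family, went from 96.3, 99.3 and 94.6 CPM to 67.7, 74.2 and 70.6 CPM (-0.45 ± 0.04). DDX10 fell by 0.35 on the log2 scale.

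Late 40S factors, which act on the exported precursor or accompany it out of the nucleus, were the role group that held both directions: 5 of 6 fell and NOB1 rose (median -0.53). PNO1, the protein that sits at the 3' end of 18S rRNA next to the NOB1 cleavage site, measured 55.7, 55.9 and 56.2 CPM in Scramble and 21.6, 23.5 and 22.9 CPM in DIS3-sh1, a log2 fold change of -1.30 ± 0.06 (edgeR, adjusted p = 4.75e-19). NOB1 (chromosome 16, 69741867 to 69754940) measured 81.6, 78.2 and 80.4 CPM in Scramble and 105, 103 and 102 CPM in DIS3-sh1. All DIS3-sh1 libraries were above all Scramble libraries, and the log2 fold change was 0.37 ± 0.04 (edgeR, adjusted p = 8.62e-10), with a range of 0.35 to 0.45 over 12 alternative settings. These binding partners in the same late particle thus moved in opposite directions. LTV1, an assembly factor released before the last steps, went from 53.4, 57.3 and 59.5 CPM to 28.5, 31.3 and 35.6 CPM (-0.83 ± 0.06). TSR1, a GTPase-like protein that blocks early joining of the subunits, went from 149, 147 and 146 CPM to 125, 126 and 124 CPM (-0.24 ± 0.03, adjusted p = 2.63e-07). RRP12 and BYSL (bystin) fell by 0.60 and 0.47 on the log2 scale.

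Of 20 factors of 60S assembly, 19 fell and BOP1 did not pass (median -0.69). NOP16 had the largest fall of all members: 55.2, 54.1 and 54.1 CPM in Scramble and 17.8, 19.0 and 17.0 CPM in DIS3-sh1, a log2 fold change of -1.61 ± 0.06 (edgeR, adjusted p = 1.09e-20). Its level in DIS3-sh1 was 32.9% of that in Scramble. RRS1, which brings in the 5S particle, went from 41.4, 40.8 and 42.4 CPM to 18, 21 and 17 CPM (-1.15 ± 0.07). MRTO4, a placeholder for the stalk protein P0, fell by 1.13, EBNA1BP2 by 1.07 and the rRNA methyltransferase gene FTSJ3 by 1.01 on the log2 scale. ISG20L2, an exonuclease that trims the 5.8S precursor, and NOP2, a methyltransferase of 28S rRNA, fell by 0.97 and 0.92.

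PES1, BOP1 and WDR12 form the PeBoW complex, which processes the 5.8S and 28S precursors. PES1 fell by 0.82 ± 0.04 and WDR12 by 0.69 ± 0.05 on the log2 scale. BOP1 measured 93.9, 93.9 and 96.1 CPM in Scramble and 94.6, 73.1 and 82.7 CPM in DIS3-sh1, where replicate 1 overlapped the Scramble range and the other replicates lay below it. Its log2 fold change of -0.18 ± 0.07 missed the threshold (edgeR, adjusted p = 0.0551) and was -0.28 without DIS3-sh1 replicate 1 (adjusted p = 4.75e-07). TBL3 and BOP1 shared this pattern, in which the same library was high.

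Related genes within the 60S group fell together. RRP1B, which also binds chromatin, measured 343, 341 and 342 CPM in Scramble and 244, 241 and 237 CPM in DIS3-sh1 (log2 fold change -0.51 ± 0.03), and its paralog RRP1 fell by 0.69 ± 0.05. GNL3L went from 230, 229 and 234 CPM to 139, 144 and 147 CPM (-0.69 ± 0.03), and GNL3 (nucleostemin), a related nucleolar GTPase gene, fell by 0.62 ± 0.03. GNL2, another GTPase of the family, fell by 0.67 ± 0.04. The differences between paralogs were not tested. NIP7 and BRIX1 fell by 0.65 each, and DDX18 by 0.60. The smallest falls that passed were in the helicase gene DDX27, at a log2 fold change of -0.33, and in LAS1L, the endonuclease that cuts an internal spacer, at -0.32.

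The most abundant member mRNAs per length were those of the nucleolar proteins NPM1, NCL, NOLC1 and DDX21. All 5 genes of the nucleolar group fell (median -0.64). Per kilobase of annotated exon, NPM1 stood at 438 CPM in Scramble, NCL at 202, NOLC1 at 125 and DDX21 at 119, and the next member, GNL3L, at 89.3. MYBBP1A, the remaining gene of the group, stood lower, at 32.9. NPM1 (nucleophosmin), the main protein of the granular outer zone of the nucleolus, measured 1683, 1681 and 1666 CPM in Scramble and 1160, 1200 and 1231 CPM in DIS3-sh1, a log2 fold change of -0.49 ± 0.02. The table holds 49 NPM1 pseudogenes, whose counts came to 18.1% of those of NPM1, so reads may be split among them. NCL (nucleolin) fell more, from 1393, 1410 and 1398 CPM to 720, 787 and 798 CPM (-0.87 ± 0.03, edgeR, adjusted p = 6.70e-21). NOLC1 (Nopp140), a chaperone of snoRNPs, went from 494, 498 and 502 CPM to 319, 314 and 321 CPM (-0.65 ± 0.03). MYBBP1A, a repressor of rRNA gene transcription, and the helicase gene DDX21 fell by 0.64 and 0.48. The order of NPM1, NCL, NOLC1 and DDX21 per length was the same in DIS3-sh1, at 313, 111, 80.1 and 85.3, except that NOLC1 and DDX21 changed places, and these neighbours were close in both groups.

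Several members carry small nucleolar RNAs (snoRNAs) in their introns, which are cut out of the host transcript and guide the modification of rRNA. GENCODE 29 places 15 snoRNA genes on the same strand within 5 members (NOL11, WDR43, TSR1, GNL3 and NCL), 12 of them clear of any annotated exon of the host. Their counts were low, at most 3.43 CPM in any library. Reads from the unspliced host cannot be told apart from the snoRNA. Of 10 that passed the filter, 8 were called lower, 1 was not called and 1, SNORD20 of NCL, was called higher. Over all genes tested, 32.6% were called lower and 34.5% higher. With DESeq2, 3 were called lower, and without Scramble replicate 3, 5 were.

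SNORD20 rose while its host fell. It measured 0.388, 0.715 and 0.587 CPM in Scramble and 3.11, 2.89 and 3.43 CPM in DIS3-sh1, from 36 counts in all against 197. The log2 fold change was 2.48 ± 0.26 (edgeR, adjusted p = 7.21e-10), and over 11 alternative settings it ranged from 2.26 to 2.69. Both other snoRNAs of NCL were below the filter and not tested. SNORD82 had 11 counts in Scramble and 10 in DIS3-sh1, and SNORA75 averaged 0.543 ± 0.08 CPM with the scrambled hairpin and 0.177 ± 0.03 CPM after the knockdown (SD, n = 3 each). The sequences of the C/D box RNAs of NCL, and of SNORD92 of WDR43, which had the largest fall, are given from GENCODE 29. Capitals mark the first TGATGA (C box letters) and the last CTGA (D box letters).
SNORD20: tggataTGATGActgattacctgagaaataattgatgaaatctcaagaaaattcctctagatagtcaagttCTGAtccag
SNORD82: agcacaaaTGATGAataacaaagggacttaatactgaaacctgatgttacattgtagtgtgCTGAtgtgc
SNORD92: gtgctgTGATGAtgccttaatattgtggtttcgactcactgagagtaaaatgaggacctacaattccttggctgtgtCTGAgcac
They lie at chr2:231456444-231456523 (SNORD20) and chr2:231460371-231460440 (SNORD82) on the minus strand and at chr2:28913664-28913748 (SNORD92) on the plus strand. All 3 hold both boxes. They were picked after their values were seen, and whether these letters go with the change was not tested.

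**Figure D5:**
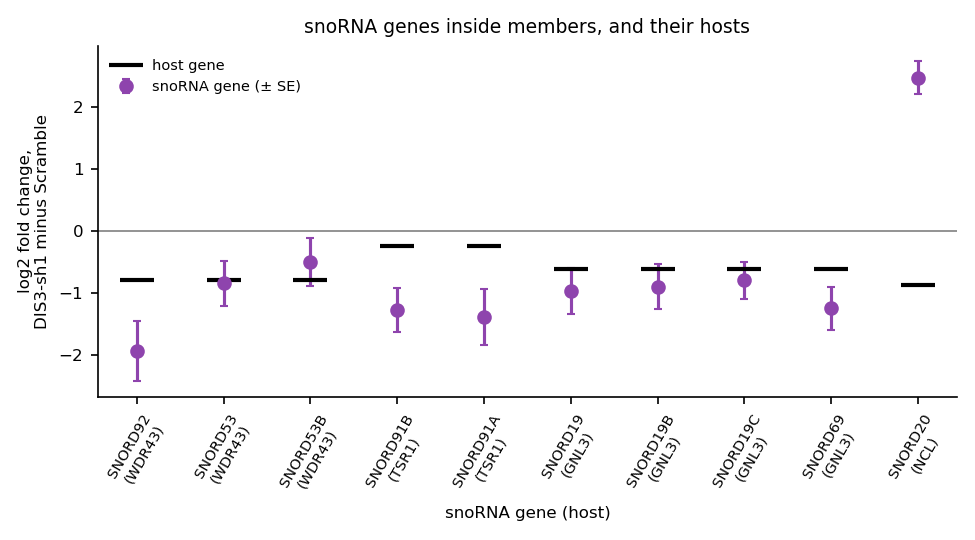
Log2 fold change (y axis) of the 10 tested snoRNA genes that lie within members, with SE bars, and of their host genes (black bars, x axis labels in brackets). SNORD20 is at 2.48 above its host NCL at -0.87, and the other 9 lie below 0.

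Of the other 9 tested snoRNAs, 8 fell, as their hosts did. SNORD92 measured 0.689, 0.906 and 0.489 CPM in Scramble and 0.141, 0.249 and 0.143 CPM in DIS3-sh1, a log2 fold change of -1.94 ± 0.49 beside -0.80 for WDR43. SNORD69 of GNL3 went from 1.03, 1.19 and 1.37 CPM to 0.471, 0.349 and 0.666 CPM (-1.25 ± 0.35). SNORD91A and SNORD91B, in the modestly lowered TSR1, had log2 fold changes of -1.39 ± 0.45 and -1.28 ± 0.36 beside -0.24 for the host, a difference that was not tested. SNORD53, SNORD19, SNORD19B, SNORD19C and SNORD91A lost their calls in some settings, DESeq2 included, and SNORD92, SNORD69 and SNORD91B kept theirs in the 11 settings that held them.

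The rest of the pathway was taken from a list of 76 ribosome assembly factors that are not members. Of these, 67 fell, 4 rose and 5 did not pass, with a median log2 fold change of -0.45, beside 32.6% of all genes called lower. Those with the smallest p were RBM19 (-1.29 ± 0.04), a small subunit factor, BCCIP (-1.15 ± 0.04) and the 60S factors TEX10 (-1.17 ± 0.04) and URB2 (-1.06 ± 0.04). RBM19 measured 111, 116 and 118 CPM in Scramble and 46.7, 47.6 and 45.8 CPM in DIS3-sh1. EFL1, the GTPase that releases eIF6 from the late 60S subunit, rose from 35.4, 33.5 and 34.4 CPM to 57.1, 57.9 and 54.0 CPM (log2 fold change 0.71 ± 0.05). RSL24D1 rose by a log2 fold change of 0.50, NOP53 by 0.17 and DDX31 by 0.15. DDX31 lost its call in 5 of 12 settings, with adjusted p of 0.158 in DESeq2. NMD3, DDX54, WDR74, ESF1 and RIOK3 were not called, at log2 fold changes of -0.09 to 0.09. The E-box was in 28.8% of 66 promoters of these factors.

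Level and length were set beside the size of the change as a description. Across the 58 genes the log2 fold change had r = 0.21 (rho 0.19) with log2 mean CPM. It had r = 0.19 (rho 0.18) with log2 gene span and r = 0.20 (rho 0.23) with log2 exon length. These are descriptions across genes measured in the same libraries. The members lie on 17 chromosomes, with 8 on chromosome 1. Whether reads were counted by strand is not given in the sources used here, and 34 members overlap an annotated gene on the opposite strand, NOB1, TBL3 and BOP1 among them. Of the 18 members that overlap no annotated gene, 18 fell, with a median log2 fold change of -0.56.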

How the data were processed

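The authors deposited expected counts per gene, many of them fractional. Tools named in the submitters' processing notes are HISAT2 2.1.0, Bowtie2 2.3.5, featureCounts 1.5.1 and SAMtools, with build hg38. Their roles, the annotation and the use of strand are not given in the sources used here. Per the labels' protocols, RNA was depleted of ribosomal RNA before stranded libraries were made. The names of 3 columns of per-sample values matched no label. They were not used, DIS3-sh2 is not analysed here, and the fit planned over 9 libraries was made over 6.

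Counts were rounded, which moved totals by at most 0.00137%. The model in edgeR 4.0.16 (R 4.3.3) had group as its only term, with TMM scaling, the filter on low counts by group, and a robust two-sided quasi-likelihood F-test. Benjamini-Hochberg adjustment ran over 19591 genes, and the SE was derived from the fold change and F. The code was tested on simulated data with 200 changed genes. It called 46%, 68%, 74% and 98% of the genes changed 1.25-, 1.5-, 2- and 4-fold, and 6.54% of its calls were false. In the data themselves 6379 genes were called lower and 6751 higher, far more than the 200 changed in the simulation. The simulated rates therefore check the code and do not give the recovery or false calls in these data. Alternatives were DESeq2 1.42.0, RLE and upper-quartile scaling, no filter, a replicate block, each library left out, and a fit without small structural and mitochondrial genes, chosen after seeing the data.

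Members, lists and role groups were chosen with earlier results of these data known. Values for every library are given, per role group, for the 2 genes with the highest mean CPM, the 2 with the largest absolute change and any not called or opposite to most. Of the other assembly factors, the 4 with the smallest p and those called higher are named. UTP4, WDR46, uncalled factors and the snoRNAs were described after their values were seen. Symbols matched 61757 identifiers, gene positions are from GENCODE 29 and promoters from RefSeq, both on GRCh38. The planned NRF1 and YY1 motifs are not reported here. P-values set the difference between the groups against the spread between these libraries.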

Additional observations from a re-analysis of the deposited data

How the results depend on the processing

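Over 12 alternative settings, between 54 and 57 members were called lower and 1 higher (NOB1). Among 696 values of single members, 683 kept their direction and their side of the threshold, 2 lost a call (UTP4) and 11 gained one (TBL3 and BOP1). No member changed sign. The members' median was -0.57 with upper-quartile scaling, which moved the median of all genes from 0.02 to 0.10, and ranged from -0.67 to -0.57 over all settings. TBL3 was called with RLE scaling (adjusted p = 0.0309), without a filter (0.00681) and without small structural and mitochondrial genes (0.0309), and BOP1 likewise (0.0322, 4.01e-05 and 0.0209) and with DESeq2 (0.0101). Other assembly factors called lower ranged from 62 to 67. Of the 10 snoRNA genes, 3 were called lower with DESeq2 and 5 to 6 when a library was left out, 5 of them without Scramble replicate 3. The cause was not tested.

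With the replicate number as a block, 57 members were called lower, TBL3 (edgeR, adjusted p = 0.0178) and BOP1 (0.00321) now among them. Deviations of same-numbered libraries from their group means had correlations of 0.037, 0.014 and 0.01 over genes, so the numbers were not treated as pairs, although each library had its highest correlation with its own number, a hint from the data and not the design.

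Depth limits the snoRNA values, which rest on few counts, more than those of the members, of which the lowest, WDR46, had at least 30 counts in each library.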
